A study of Rattus norvegicus with 8 samples.

Results

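The genes described are markers of resident macrophages and the signals of the colony-stimulating factor 1 (CSF1) pathway in the saphenous artery, a muscular artery of the rat hind limb. They were chosen by gene symbol. Of the 10 genes named, 9 were found among the 19239 rows of the table, and Emr1 (now Adgre1), which encodes a macrophage surface receptor, was not analysed here. Total RNA of whole arteries from male Wistar rats was hybridised to 8 arrays, 4 from adult and 4 from young animals. The adult rats were 2 to 3 months old, and 1 animal gave the 2 arteries of an adult sample. The young rats were 10 to 12 days old, and 2 animals were pooled for the 4 arteries of a young sample. No group received a treatment, and the comparison asks how expression in the artery changes between early postnatal life and adulthood. All values are log2 expression, quantile-normalised by the authors, and differences are adult minus young ± SE from limma (n = 4 arrays at each age).

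Macrophages reside in the outer layer of arteries, where they clear dying cells and debris and act on smooth muscle and matrix. Their survival depends on the receptor tyrosine kinase CSF1R, which binds the ligands CSF1 and interleukin-34, and on the transcription factor PU.1 (encoded by Spi1), which switches on Csf1r and many other myeloid genes. Lyz2 encodes lysozyme, Cd163 the scavenger receptor for haemoglobin and haptoglobin, and Mrc1 the mannose receptor. Cd68 encodes a lysosomal glycoprotein, Aif1 the actin-binding protein IBA1, and Cx3cr1 the receptor for fractalkine.

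The start regions of 3 of the genes that rose are shown because PU.1 is known to act on the start regions of myeloid genes. All 3 hold the core of the PU.1 motif. Cd163, which also rose, does not hold it and is not shown. The sequences run from 250 bases before to 50 bases after the gene start on the gene's own strand, and come from RefSeq on the GRCr8 build. An entry was found for 6 of the 9 genes (Lyz2, Csf1r, Cd68, Cd163, Mrc1 and Cx3cr1). Capitals mark the core of the PU.1 motif, GAGGAA, searched on both strands (TTCCTC on the printed strand). The windows are chr7:54797962-54798261 (minus strand) for Lyz2, chr18:56834129-56834428 (plus strand) for Csf1r and chr10:54882392-54882691 (minus strand) for Cd68.
Lyz2: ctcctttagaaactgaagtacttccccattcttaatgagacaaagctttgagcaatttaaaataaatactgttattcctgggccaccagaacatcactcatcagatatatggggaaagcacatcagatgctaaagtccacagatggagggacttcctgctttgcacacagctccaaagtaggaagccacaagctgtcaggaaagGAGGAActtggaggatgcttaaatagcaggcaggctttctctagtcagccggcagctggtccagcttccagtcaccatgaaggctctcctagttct
Csf1r: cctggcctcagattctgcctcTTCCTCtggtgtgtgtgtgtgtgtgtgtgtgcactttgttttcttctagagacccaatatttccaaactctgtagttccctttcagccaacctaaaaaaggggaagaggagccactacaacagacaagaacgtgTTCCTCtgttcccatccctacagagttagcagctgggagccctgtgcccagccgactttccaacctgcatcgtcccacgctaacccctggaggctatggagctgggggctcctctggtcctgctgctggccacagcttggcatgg
Cd68: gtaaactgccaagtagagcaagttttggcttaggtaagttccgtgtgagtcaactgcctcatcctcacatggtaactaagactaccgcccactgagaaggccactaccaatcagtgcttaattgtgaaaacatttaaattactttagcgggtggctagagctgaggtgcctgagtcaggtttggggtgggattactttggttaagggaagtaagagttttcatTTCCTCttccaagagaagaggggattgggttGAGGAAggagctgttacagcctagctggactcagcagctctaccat

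The core was present in 4 of the 6 windows (Lyz2, Csf1r, Cd68 and Mrc1) and in 27.5% of the 27457 windows of all genes. Cd163, which rose, and Cx3cr1 had 0 matches, whereas Mrc1, which held the core, did not pass the threshold for a rise. Lyz2 had 1 match, which began 46 bases before the start, and Csf1r, Cd68 and Mrc1 had 2 each. In Csf1r the matches began at positions -229 and -95. The longer form GAGGAAGT, which contains the core, was found in 0 of the 6 windows and in 2.44% of all windows. A match describes the letters of these windows and does not show binding.

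The levels of 6 of the 9 genes were higher in adult arteries, and 0 were lower (limma, Benjamini-Hochberg adjusted p below 0.01 over all 19239 rows, two-sided). Among all rows 32.7% passed this test, with 16.7% higher and 16% lower in adult arteries. The genes that rose were Lyz2, Csf1r, Cd163, Cd68, Aif1 and Il34, whereas Mrc1, Cx3cr1 and Csf1 did not pass the threshold. The difference was positive in 9 of 9 genes and ranged from 0.06 to 1.91, with a median of 0.20 against 0.00 for all rows. At an unadjusted p below 0.05, 9 genes were higher and 0 lower, against 27.6% higher and 24.5% lower among all rows. All adult values exceeded all young values in 7 of the 9 genes, against 24.4% of all rows in this direction and 46% in either. Only Lyz2 and Csf1r passed the threshold with a difference of at least 1.5-fold, a size reached upward by 3.72% of all rows. Because whole arteries were measured, fewer or more cells of a type and less or more RNA per cell cannot be told apart in any of these values.

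**Figure D1:**
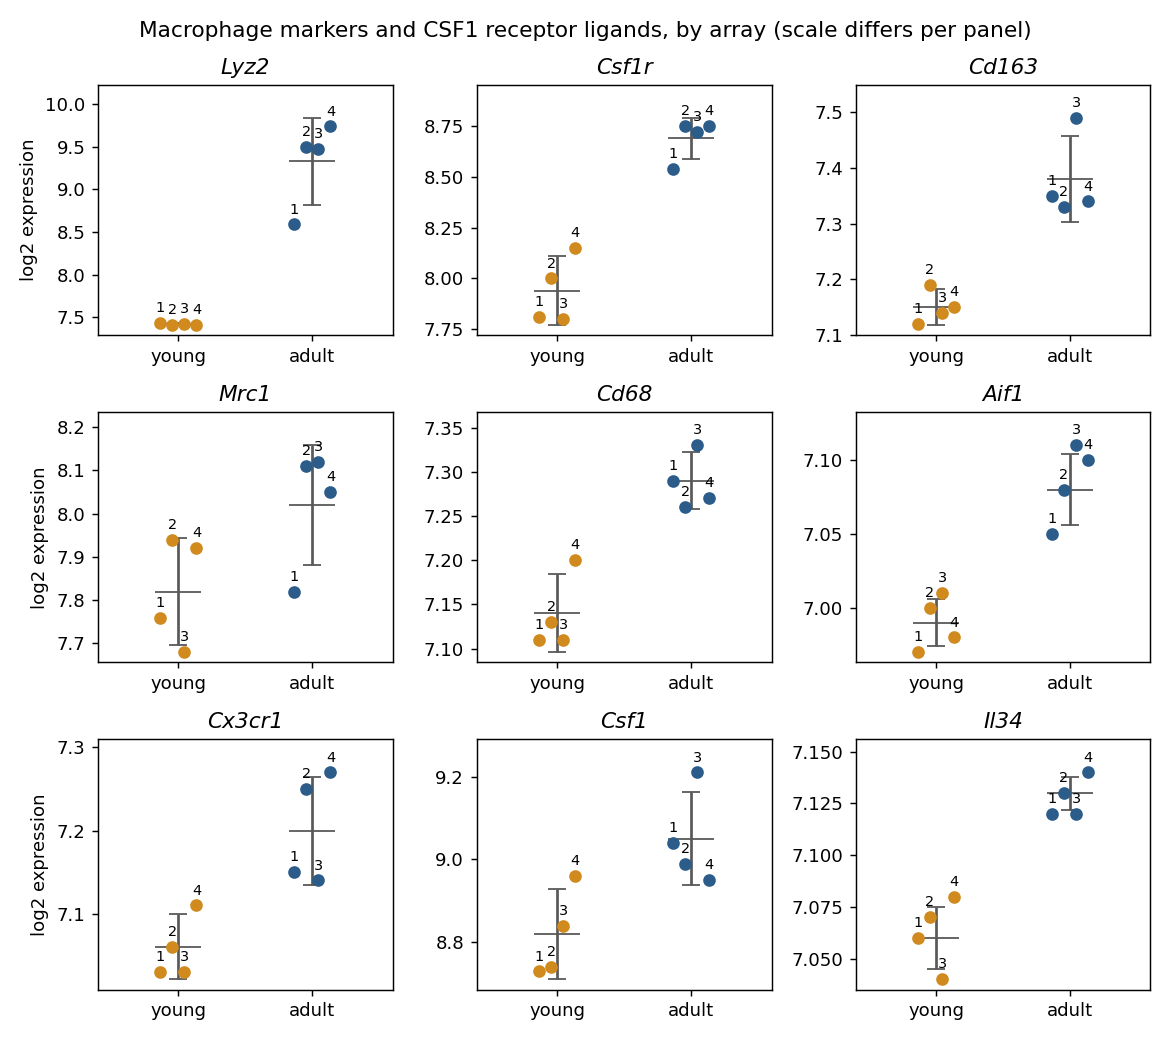
Each panel plots the log2 expression (vertical axis, scale differing per panel) of 1 gene in the 4 young and the 4 adult arrays. Points are arrays numbered by replicate and bars are the mean ± SD. The adult values of Lyz2 lie between 8.59 and 9.74, above young values of 7.41 to 7.43, and the ages overlap in Mrc1 and Csf1.

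Lyz2 (Entrez Gene 25211), the lysozyme gene of macrophages and other myeloid cells, showed the highest difference. Its levels were 8.59, 9.50, 9.48 and 9.74 in adult replicates 1 to 4 and 7.43, 7.41, 7.42 and 7.41 in young replicates 1 to 4. The young values spanned hardly any range, and adult replicate 1 was the lowest adult array. The adult mean was 9.33 ± 0.508 (SD, n = 4) and the young mean 7.42 ± 0.009, a difference of 1.91 ± 0.232 or 3.75-fold (limma adjusted p = 0.000477). Rats carry a near copy, the lysozyme gene Lyc2, whose RNA may bind probes of Lyz2. The Lyc2 row, which was named after its values were seen, rose by 0.50 ± 0.057 (limma adjusted p = 0.000331), from 6.95 to 7.45.

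Csf1r (Entrez Gene 307403), the receptor on which macrophage survival depends, had levels of 8.54, 8.75, 8.72 and 8.75 in adult replicates 1 to 4. The young levels were 7.81, 8.00, 7.80 and 8.15, all below the adult ones, with young replicate 4 highest. The difference was 0.75 ± 0.090 or 1.68-fold (limma adjusted p = 0.000437). Tyrobp, which encodes the adaptor DAP12 that signals with CSF1R, rose as well, by 0.59 ± 0.049 (limma adjusted p = 7.94e-05).

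The scavenger receptor gene Cd163 rose by 0.23 ± 0.038 (limma adjusted p = 0.00235). Its adult levels were 7.35, 7.33, 7.49 and 7.34, and its young levels were 7.12, 7.19, 7.14 and 7.15. Adult replicate 3 was well above the other adult arrays, which were themselves above all young ones. Mrc1, often found on the same tissue macrophages, differed by 0.20 ± 0.085 (limma adjusted p = 0.0947), with a 95% interval from 0.00 to 0.40. Its adult levels were 7.82, 8.11, 8.12 and 8.05 against young levels of 7.76, 7.94, 7.68 and 7.92, so that adult replicate 1 lay within the young range.

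The differences of the remaining markers were small. Cd68 was at 7.29, 7.26, 7.33 and 7.27 in adult and at 7.11, 7.13, 7.11 and 7.20 in young arteries, a difference of 0.15 ± 0.026 (limma adjusted p = 0.00251). Aif1 was at 7.05, 7.08, 7.11 and 7.10 in adult and at 6.97, 7.00, 7.01 and 6.98 in young arteries (0.09 ± 0.015, limma adjusted p = 0.00186). In both genes the ages did not overlap. Cx3cr1 was at 7.15, 7.25, 7.14 and 7.27 in adult and at 7.03, 7.06, 7.03 and 7.11 in young arteries. Its difference of 0.15 ± 0.035 was as large as that of Cd68 but missed the threshold (limma adjusted p = 0.0118, 95% interval from 0.06 to 0.23), although the ages did not overlap. It passed the threshold with array weights, a trended variance, the lowest intensity subtracted or the dimmest rows removed.

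The ligands of CSF1R are encoded by Csf1 and Il34. Csf1 was at 9.04, 8.99, 9.21 and 8.95 in adult and at 8.73, 8.74, 8.84 and 8.96 in young arteries. Young replicate 4 reached the level of the lowest adult array, and the difference of 0.23 ± 0.072 did not pass the threshold (limma adjusted p = 0.0344, 95% interval from 0.06 to 0.40). Il34 was at 7.12, 7.13, 7.12 and 7.14 in adult and at 7.06, 7.07, 7.04 and 7.08 in young arteries. Its difference of 0.06 ± 0.010 or 1.04-fold was the lowest of the 9 genes and passed the threshold (limma adjusted p = 0.00181), with an SD of 0.008 in adult and 0.015 in young arteries.

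Both age means of 4 of the 9 genes lay below the median of the table, 7.29, and near its lowest value of 6.80, or 111 before the log. Differences of such rows are compressed on the deposited scale. With the lowest intensity of the table subtracted and an offset of 16 added before the log, the difference was 2.83 ± 0.260 in Lyz2, 1.09 ± 0.130 in Csf1r, 0.60 ± 0.088 in Cd163, 0.42 ± 0.071 in Cd68 and 0.33 ± 0.052 in Aif1. That of Il34 was then 0.21 ± 0.037. With each array centred on 28 ribosomal protein genes, Cd68 (0.21, adjusted p = 0.065), Aif1 (0.16, adjusted p = 0.249) and Il34 (0.13, adjusted p = 0.411) no longer passed in the limma fit, and Lyz2, Csf1r and Cd163 did. The differences of Cd68, Aif1 and Il34 were larger than on the deposited scale. This centring gave all genes the same variance, with an SE of 0.090, against 0.026, 0.015 and 0.010 in the main fit.

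**Figure D2:**
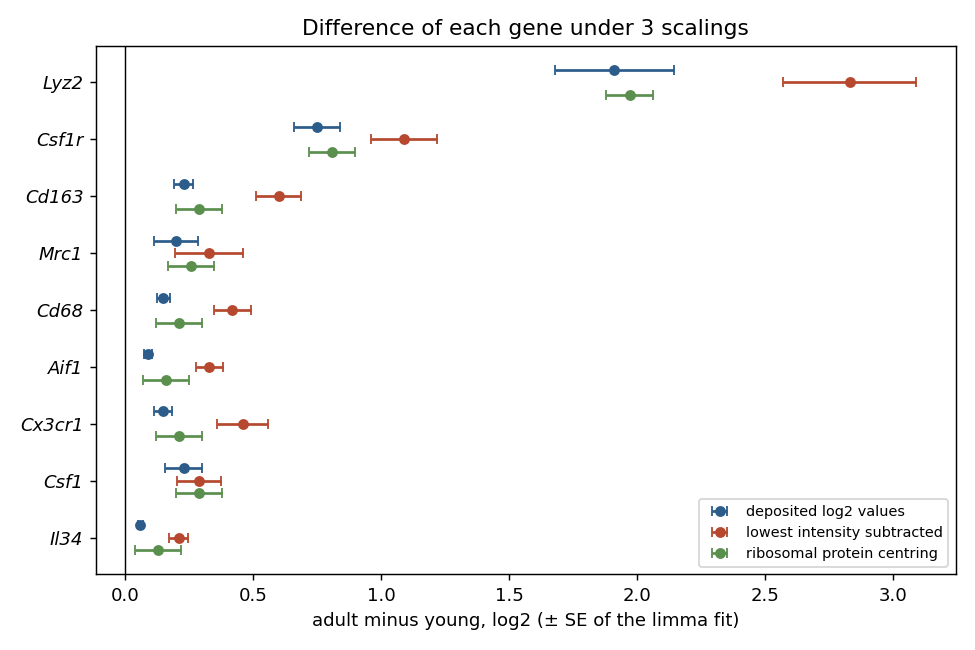
The horizontal axis gives the adult minus young difference in log2 units for each of the 9 genes (rows), with the standard error of the limma fit as bars. Colours stand for the deposited values, the values after subtraction of the lowest intensity, and the values centred on ribosomal protein genes. Every difference is above 0, and that of Lyz2 goes from 1.91 to 2.83 with the lowest intensity subtracted.

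Within an age the arrays were not ordered alike by all genes. Adult replicate 1 was the lowest adult array for Lyz2, Csf1r, Mrc1 and Aif1, and adult replicate 3 the highest for Cd68, Cd163, Mrc1, Aif1 and Csf1. Among the young arrays, replicate 4 was highest for 5 of the 9 genes. In the 29 other macrophage and myeloid genes measured, adult replicate 1 was lowest 15 times and young replicate 4 highest 16 times. Adult replicate 1 also stood apart in Nr4a1, a gene of blood monocytes and of the immediate early response, with 11.21 against 9.02, 7.82 and 7.87 in the other adult arrays. The part of this array in the results was not tested beyond leaving it out, which raised the difference of Lyz2 to 2.15 and that of Csf1r to 0.80.

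The gene whose profile over the 8 arrays was most like that of Csf1r was Cd4, with a root mean square difference of 0.060 between the profiles centred on their own means. In rats, CD4 is carried by macrophages as well as by helper T cells. Its levels were 8.22, 8.42, 8.32 and 8.49 in adult and 7.41, 7.55, 7.43 and 7.72 in young arteries. Young replicate 4 was the highest young array in both genes. The next were Dmpk (0.070) and Tspan2 (0.074), at higher levels of 10.92 to 11.89 and of 10.67 to 11.75. The measure takes in the size of the age difference and ignores the level. That difference was 0.84 in Cd4, 0.73 in Dmpk and 0.72 in Tspan2, against 0.75 in Csf1r. A near profile therefore does not show that the genes share a cell type. For Csf1 the nearest profiles were those of Map6 (0.049), Coro1c (0.049) and Nolc1 (0.050), and for Lyz2 those of Aldh2 (0.157), Dmp1 (0.179) and Eef2k (0.195).

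Of the other 14 genes measured around the CSF1 pathway, 2 were higher and 3 lower in adult arteries. These shares of 14.3% and 21.4% were near those of all rows, 16.7% and 16%. At an unadjusted p below 0.05, 4 were higher and 7 lower, beside 27.6% and 24.5% of all rows. The median difference of the list was -0.09. Tyrobp and Csf3r, the receptor of granulocyte colony-stimulating factor (0.08 ± 0.016, limma adjusted p = 0.00498), rose. Sdc1, which encodes syndecan-1, a cell surface proteoglycan that also binds interleukin-34, fell from 10.23 to 8.77 (-1.46 ± 0.111, limma adjusted p = 5.02e-05). Its levels were 8.91, 8.66, 8.95 and 8.56 in adult and 10.39, 10.13, 10.32 and 10.08 in young arteries, so the ages lay far apart. Ptprz1, a further receptor of interleukin-34, fell by 0.17 on the log2 scale (SE 0.039, limma adjusted p = 0.00857).

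Adam17, the protease that sheds CSF1 and CSF1R from the cell surface, was at 8.75, 8.79, 8.65 and 8.71 in adult and at 9.06, 9.25, 9.04 and 8.90 in young arteries (-0.34 ± 0.070, limma adjusted p = 0.00653). The related protease gene Adam10 differed by -0.60 ± 0.155 and missed the threshold (limma adjusted p = 0.0161), with young replicate 4 at 8.25 against 8.79 to 8.94 in the other young arrays. Without young replicate 4 it passed (-0.75, adjusted p = 0.00052). The calls of Csf3r, Ptprz1 and Adam17 were lost when any of several single arrays was left out, with adjusted p values up to 0.0169, 0.0239 and 0.0205. The ligands Csf2 (0.04 ± 0.011, limma adjusted p = 0.0188) and Csf3 (-0.06 ± 0.028, limma adjusted p = 0.144) and the receptor chain Csf2rb (-0.10 ± 0.031, limma adjusted p = 0.0403) did not pass.

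Of the 17 measured signalling proteins of myeloid cells that act below CSF1R and DAP12, 5 rose and 1 fell, with a median difference of 0.03. These were 29.4% and 5.88% of the list, beside 16.7% and 16% of all rows. Lcp2, which encodes the adaptor SLP-76, rose by 0.61 ± 0.074 (limma adjusted p = 0.000481). The other genes that rose did so by less, namely the actin regulator Nckap1l (0.15 ± 0.019), the phosphatases Ptpn6 (0.10 ± 0.008) and Inpp5d (0.10 ± 0.012), and the phosphoinositide 3-kinase subunit Pik3cd (0.07 ± 0.009). The kinase gene Lyn fell (-0.25 ± 0.043). With ribosomal protein centring 1 signalling gene was called as higher.

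Of 15 measured transcription factors of macrophages, 9 rose and 2 fell, with a median of 0.11. These were 60% and 13.3% of the list, beside 16.7% and 16% of all rows. Spi1, which encodes PU.1, was at 7.17, 7.19, 7.22 and 7.21 in adult and at 7.03, 7.05, 7.05 and 7.04 in young arteries (0.15 ± 0.012, limma adjusted p = 6.43e-05). The ages did not overlap, and the difference was small. With ribosomal protein centring the difference of Spi1 was 0.22 ± 0.090 and did not pass (limma adjusted p = 0.0609). Runx1 (0.69 ± 0.087) and Mitf (0.50 ± 0.043), neither of which is restricted to macrophages, rose most. The liver X receptor gene Nr1h3 (0.18 ± 0.027), the interferon regulatory factors Irf8 (0.15 ± 0.021) and Irf5 (0.13 ± 0.015), Tfec (0.11 ± 0.022), Cebpb (0.10 ± 0.017) and Ikzf1 (0.07 ± 0.011) rose by less. The call of Tfec was lost without adult replicate 2, 3 or 4 and without young replicate 1, 3 or 4 (adjusted p up to 0.0214). Zeb2 (-0.66 ± 0.093) and Fli1 (-0.55 ± 0.094), which are also expressed outside the myeloid lineage, Fli1 in endothelium, fell. Cebpa differed by 0.02 ± 0.012 (limma adjusted p = 0.253) and Maf by 0.13 ± 0.069 (limma adjusted p = 0.171). With ribosomal protein centring 2 factors were called as higher, and with the replicate number as a block 5.

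Of 29 other macrophage and myeloid genes measured, 20 rose and 0 fell in the limma fit, with a median difference of 0.35. The share that rose was 69%, beside 16.7% higher and 16% lower among all rows. At an unadjusted p below 0.05, 23 were higher and 1 lower, where all rows gave 27.6% and 24.5%. The oxidase subunit gene Cybb was at 7.82, 8.00, 8.04 and 8.20 in adult and at 7.19, 7.26, 7.17 and 7.24 in young arteries (0.80 ± 0.075, limma adjusted p = 0.000131). The lysosomal protease gene Ctss was at 7.44, 7.81, 7.66 and 7.82 in adult and at 7.02, 7.06, 7.01 and 7.04 in young arteries (0.65 ± 0.082). Both genes separated the ages in all arrays. Cd4 rose by 0.84 ± 0.084 and Fcer1g, the signalling chain of Fc receptors, by 0.59 ± 0.060. At the lower end were the high-affinity Fc receptor gene Fcgr1a (0.22 ± 0.024), the actin regulator Coro1a (0.19 ± 0.022), the sialoadhesin gene Siglec1 (0.18 ± 0.037) and the oxidase subunit gene Ncf4 (0.06 ± 0.013). The calls of Siglec1 and Ncf4 were each lost without any of several single arrays (adjusted p up to 0.0191 and 0.0165).

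Named after their values were seen, the 3 chains of complement C1q, which macrophages make, rose together by 0.59 ± 0.057 (C1qa), 0.44 ± 0.056 (C1qb) and 0.43 ± 0.047 (C1qc), and the leukocyte surface phosphatase Ptprc (CD45) by 0.32 ± 0.020 (limma adjusted p = 2.1e-05). Mertk, the receptor by which macrophages take up dying cells, differed by 0.62 ± 0.152 and missed the threshold (limma adjusted p = 0.0128), with adult replicate 4 at 8.69 and the other adult arrays between 7.93 and 8.20. It passed without adult replicate 4 (0.47, adjusted p = 0.00194). The leukocyte surface gene Cd48 was at 11.67 in adult and 11.76 in young arteries (-0.09 ± 0.117, limma adjusted p = 0.576), and its sign turned without adult replicate 2. Its level lay far above that of Ptprc, at 7.35 and 7.04, and whether this row reports leukocyte RNA was not tested. Of the 29 genes of this list, 9 did not pass. Besides Mertk and Cd48 these were Itgam (0.03), Cd14 (0.12), Msr1 (0.06), Trem2 (0.05), Fcgr3a (0.01), Vsig4 (-0.01) and Cd52 (-0.05). Their limma adjusted p values ran from 0.0486 in Itgam to 0.687 in Fcgr3a.

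**Figure D3:**
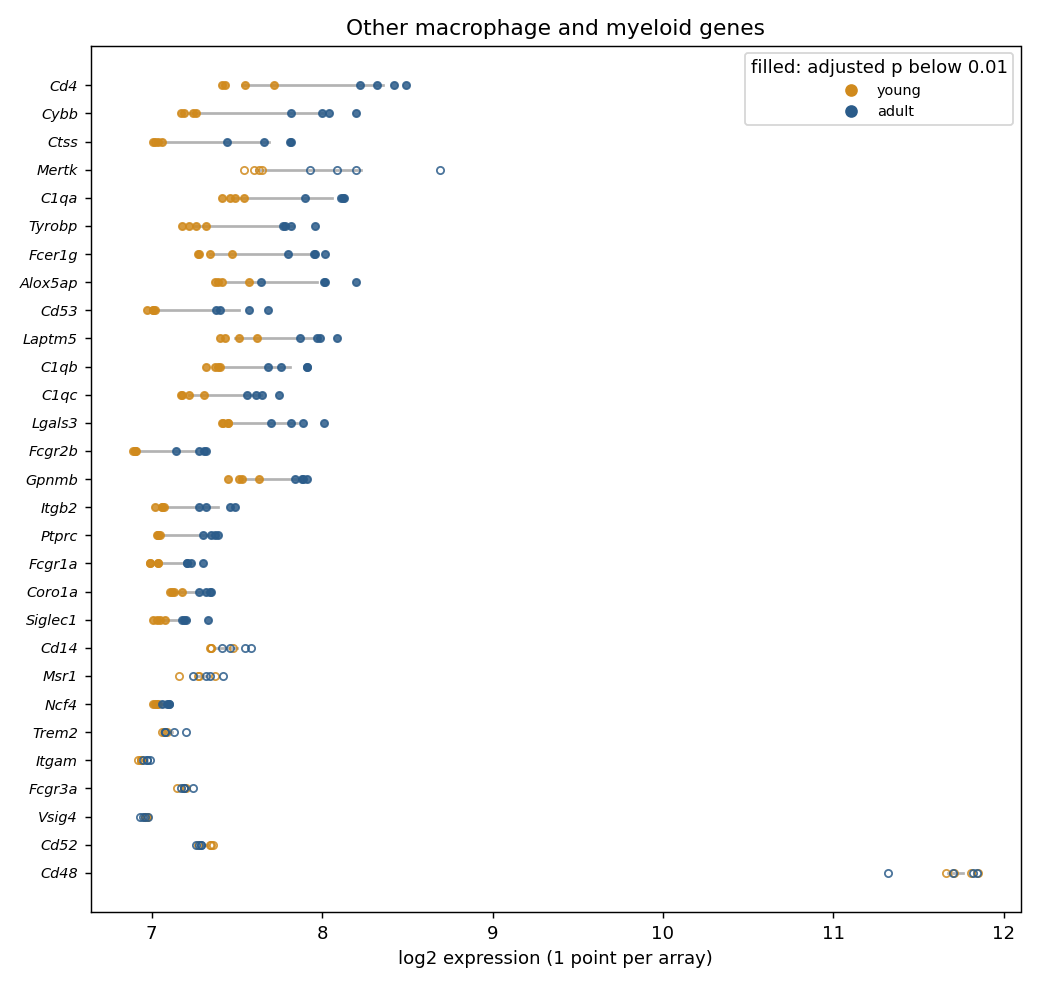
Each row is 1 macrophage or myeloid gene and each point 1 array on the log2 expression axis, with young arrays in orange and adult arrays in blue. Filled points mark the 20 genes that rose, grey lines join the age means, and Cd48 lies far to the right of the others, at 11.67 and 11.76.

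Of 7 measured markers of perivascular resident macrophages, 6 rose and 1 fell, where 16.7% of all rows rose and 16% fell. F13a1, the coagulation factor XIII subunit made by tissue macrophages, was at 8.00, 7.83, 7.87 and 7.77 in adult and at 7.26, 7.34, 7.33 and 7.33 in young arteries (0.55 ± 0.048, limma adjusted p = 9.19e-05). Folr2 rose by 0.33 ± 0.063, the chemokine Ccl24 by 0.25 ± 0.030, the lectin Clec10a by 0.24 ± 0.038 and Pf4 by 0.12 ± 0.021. Gas6, which the list of genes for the uptake of dying cells also holds, was the sixth. The call of Folr2 was lost without adult replicate 4 or without young replicate 1, 2 or 3 (adjusted p up to 0.0139).

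Lyve1, the hyaluronan receptor carried by these macrophages and by lymphatic endothelium, was the member that fell. Its levels were 7.62, 7.69, 7.90 and 7.73 in adult and 9.48, 9.60, 9.06 and 9.30 in young arteries (-1.62 ± 0.120, limma adjusted p = 4.51e-05). All 6 markers of lymphatic endothelium measured, Lyve1 included, were lower in adult arteries, against 16% of all rows. The mean of that list ranged from 7.16 to 7.45 in adult and from 8.24 to 8.77 in young arrays, and its part in the fall of Lyve1 was not tested.

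Gas6, the ligand that bridges dying cells to Mertk and is not restricted to macrophages, rose from 11.32 to 12.00 (0.68 ± 0.048, limma adjusted p = 3.58e-05). Of 13 measured genes of the uptake of dying cells, 3 rose and 2 fell. These shares of 23.1% and 15.4% were near those of all rows, 16.7% and 16%. Mfge8, a further bridging protein, rose by 0.45 ± 0.045 and Dock2 by 0.05 ± 0.010, and the receptors Lrp1 (-0.35 ± 0.030) and Tyro3 (-0.16 ± 0.025) fell. The call of Dock2 was lost without any 1 of the 8 arrays (adjusted p from 0.0104 to 0.0241).

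Of 10 measured genes of blood monocytes, 0 rose and 2 fell in the limma fit (3 higher and 3 lower at an unadjusted p below 0.05), which were Ace, which endothelium also expresses (-1.57 ± 0.126), and F10 (-0.04 ± 0.009). The call of F10 was lost without adult replicate 1, 3 or 4 and without any 1 of the young arrays (adjusted p from 0.0118 to 0.0184), and its sign turned with ribosomal protein centring (0.02). All rows gave 27.6% higher and 24.5% lower at the unadjusted p, and 16.7% and 16% at the adjusted threshold. Without adult replicate 1 or 3, 1 monocyte gene was called as higher. Spn differed by -0.08 ± 0.071 (limma adjusted p = 0.422). Nr4a1 differed by 1.52 ± 0.727 (limma adjusted p = 0.133). The chemokine receptor Ccr2, named after its values were seen, was at 7.10, 7.22, 7.25 and 7.38 in adult and at 7.03, 7.00, 7.06 and 7.13 in young arteries and missed the threshold (0.18 ± 0.059, limma adjusted p = 0.038), but passed without adult replicate 1 (0.23, adjusted p = 0.00958). Of 12 chemokines, receptors and adhesion molecules of monocyte entry, 0 rose and 1 fell (2 higher and 1 lower at an unadjusted p below 0.05), which was Cxcl12 (-0.86 ± 0.149, limma adjusted p = 0.00258). The adhesion molecule gene Icam1 differed by 0.15 ± 0.086 (limma adjusted p = 0.215) and the chemokine gene Ccl2 by -0.02 ± 0.132 (limma adjusted p = 0.921), with its sign depending on single arrays.

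Other white blood cells were compared by their markers. At the adjusted threshold 16.7% of all rows rose and 16% fell. Of 10 T cell markers and 7 B cell markers, 0 rose and 0 fell in the limma fit. At an unadjusted p below 0.05, 2 T cell markers were higher and 0 lower, and 3 B cell markers were higher and 1 lower, beside 27.6% and 24.5% of all rows. The mean of the T cell list was 7.02 to 7.05 in adult and 7.02 to 7.04 in young arrays. This was near the lower quartile of the table, 7.00, where differences are compressed, so small changes could be missed. Of 8 natural killer cell markers 1 (12.5%) rose (Nkg7, 0.10 ± 0.019) and 0 fell. This call was lost without adult replicate 4 or young replicate 2 or 4. Of 12 neutrophil markers 2 (16.7%, the share of all rows) rose and 1 (8.33%) fell. The list means were 6.98 to 6.99 in adult and 6.98 to 7.00 in young arrays. The count of neutrophil markers that rose was 1 without adult replicate 1 or 3 and 0 without adult replicate 4 or any 1 of the young arrays. Of 9 mast cell markers 0 rose and 4 (44.4%) fell, led by Cpa3 (-1.24 ± 0.136). Of 8 dendritic cell markers 2 (25%) rose and 0 fell, and 1 rose without young replicate 2. At an unadjusted p below 0.05, 5 dendritic cell markers were higher and 0 lower. By the same measure 2 natural killer cell markers were higher and 0 lower, and 3 neutrophil markers higher and 1 lower. Of the mast cell markers 0 were then higher and 6 lower. Among 8 genes of class II antigen presentation, which macrophages share with dendritic and B cells, 4 rose, namely Cd74 (2.86 ± 0.338), RT1-Da (1.04 ± 0.182), RT1-Ba (0.89 ± 0.130) and RT1-DMb (0.26 ± 0.043), and 0 fell. All 8 were higher at an unadjusted p below 0.05.

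Markers of the other cells of the artery differed between the ages as well, where 16.7% of all rows rose and 16% fell. Of 7 smooth muscle markers 7 rose, and the list mean was 12.56 to 12.67 in adult and 11.77 to 11.84 in young arrays, with Myh11 at 13.40 and 13.01. Of 7 endothelial markers 3 fell and 0 rose, and 5 fell without young replicate 4 or with ribosomal protein centring. At an unadjusted p below 0.05, 7 endothelial markers were lower. Of 8 fibroblast markers 5 fell and 2 rose, and 1 rose without adult replicate 2 or 3 or any 1 of the young arrays. The part of this shift in the values of the macrophage genes was not tested.

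**Figure D4:**
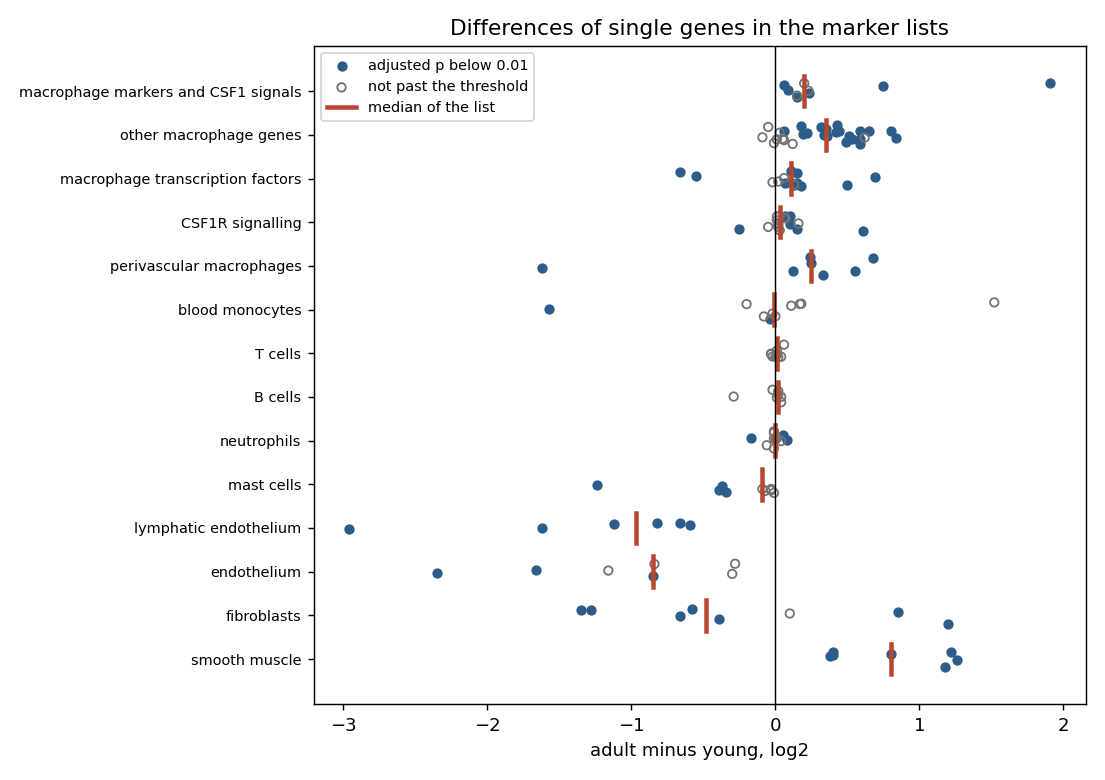
Each point is the adult minus young log2 difference (horizontal axis) of 1 gene in a marker list (rows), filled in blue where it passed the threshold. Red bars are the list medians, at 0.20 for the macrophage markers and CSF1 signals, 0.35 for other macrophage genes, 0.01 for T cells and -0.97 for lymphatic endothelium.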

How the data were processed

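Expression was measured on Affymetrix Rat Gene 1.0 arrays in 4 adult and 4 young saphenous artery samples. The authors applied quantile normalization and an Entrez-based custom probe set definition, and the submitters' processing notes name RMA. The deposited values are log2 expression, and how background was corrected is not stated in the paper or labels. The sorted values of the 8 columns were identical, so an overall shift between ages cannot be seen. Genes were named from the probe annotation (16592 of 19239 rows) and updated through the Entrez identifier with the GRCr8 gene table. The 2647 rows that it does not list are unnamed here.

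The labels gave the groups. The ages were set against each other in limma (version 3.58.1, under R 4.3.3) by a linear model with moderated variances and no covariate over all rows, with Benjamini-Hochberg adjustment and a threshold of 0.01. The study used a one-way ANOVA, run as an alternative. The members, lists and alternatives were chosen with earlier results of these data known, so no list was tested, and shares of all rows are given for each threshold. The rule for named genes was all members, up to 4 called genes at each end of a list (3 by level where under 3 were called), the CSF1 pathway and transcription factor lists, and the 3 nearest profiles of Csf1r, Csf1 and Lyz2. Lists of other cell types are given mainly by counts. The number of arrays limits the precision. Alternatives were the ANOVA, trended robust variances, array weights, ribosomal protein or median centring, subtraction of the lowest intensity, removal of the dimmest 25% of rows, blocks by replicate number or sample code, each array left out, an adjusted p of 0.05 and a minimum of 1.5-fold.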

Additional observations from a re-analysis of the deposited data

Results flagged for a closer look

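Among 18 groups of 4 values (9 genes in 2 ages), 2 held an array far from the other 3, where chance flags about 1 in 20 groups. In adult arteries, Csf1r was at 8.54 in adult replicate 1, and the other adult arrays were at 8.72 to 8.75, a gap of 0.849 of the range. Cd163 was at 7.49 in adult replicate 3, and the other adult arrays were at 7.33 to 7.35, a gap of 0.887 of the range. Without adult replicate 1 the difference of Csf1r was 0.80, and without adult replicate 3 that of Cd163 was 0.19.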

How the results depend on the processing

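The difference was above 0 for all 9 macrophage and CSF1 genes under every alternative run, and Lyz2 and Csf1r passed the threshold under each. The number of the 9 genes called was 6 in the main comparison, 4 with ribosomal protein centring and 5 with the replicate number as a block (replicate block), and 6 to 7 with 1 array left out. It was 2 with a minimum of 1.5-fold. All genes called numbered 6296, or 4024 with ribosomal protein centring, 1427 with a minimum of 1.5-fold, 4408 with the replicate block and 4951 to 5759 with 1 array left out. Ribosomal protein centring gave all genes the same variance, so its p values carry no spread of single genes. Under it Cd68 (0.21), Aif1 (0.16) and Il34 (0.13) lost their call and Csf1 (0.29, adjusted p = 0.00558) gained one. In the replicate block Cd68 (0.15, adjusted p = 0.0214) and Cd163 (0.23, adjusted p = 0.0155) lost theirs. Adult and young samples came from different animals, and same-numbered samples did not deviate together over all genes (correlations from -0.082 to 0.040). Whether same-numbered samples shared a batch was not tested. Cx3cr1 passed with trended robust variances (0.15, adjusted p = 0.00272), array weights (0.16, adjusted p = 0.00615), the lowest intensity subtracted (0.46, adjusted p = 0.0047), the dimmest rows removed (0.15, adjusted p = 0.00922), the replicate block (0.15, adjusted p = 0.00552) and without adult replicate 3 (0.17, adjusted p = 0.00983). The cause of these changes was not tested.

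With 1 array left out, the differences ranged from 1.77 to 2.15 in Lyz2, 0.70 to 0.82 in Csf1r, 0.14 to 0.17 in Cd68, 0.19 to 0.24 in Cd163, 0.15 to 0.27 in Mrc1, 0.08 to 0.10 in Aif1, 0.18 to 0.28 in Csf1, 0.06 to 0.07 in Il34 and 0.12 to 0.17 in Cx3cr1. The count of other macrophage genes that rose was 17 to 19, of transcription factors 8 to 9, of signalling proteins 5 to 6 and of perivascular markers 5 to 6. Ribosomal protein centring left 1 signalling protein and 2 transcription factors called as higher, and the replicate block left 5 transcription factors. The differences of Cd48 with 1 array left out ranged from -0.15 to 0.03 and those of Ccl2 from -0.14 to 0.06. Ribosomal protein centring turned the signs of F10 (0.02), Csf3 (0.01) and Ccl2 (0.04). The one-way ANOVA called 18 of the other macrophage genes, 1 T cell marker and 1 B cell marker as higher in adult arteries.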
